A study of Homo sapiens with 16 samples.

Results

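The 10 genes described here are 5 genes of the NF-kB system (NFKB1, NFKB2, RELB, NFKBIA and TNFAIP3) and 5 cytokines that melanoma cells are known to secrete (LIF, IL8, CXCL1, CCL2 and IL6). They were taken by symbol from the 23260 gene symbols measured, as a list drawn up with earlier results of these data known. Of the 10, 9 reached 1 FPKM (fragments scaled for transcript length and library size) in 4 or more of the 16 tumors, and were tested together with all 13426 genes that passed this filter. IL6 did not pass it. The RNA came from tumors of A375, a single human melanoma line with mutant BRAF, grown on both flanks of NOD/Scid/IL2γR-/- (NOG) mice, which lack functional T, B and NK cells. The tumors were taken on day 5 from 4 groups of 4 tumors, with 2 mice in each group. The J+V mice received both drugs, the J mice JQ1 alone at 50 mg/kg daily, the V mice Vemurafenib alone at 25 mg/kg per dose, and the control mice vehicle, all by intraperitoneal injection. JQ1 blocks the BET bromodomain proteins, which read acetylated chromatin, and Vemurafenib blocks the mutant BRAF kinase. A tumor name such as 33L is read here as the number of the mouse and the left or right flank. Each mouse belonged to 1 group, so mouse and treatment cannot be told apart beyond the spread between 2 mice.

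NF-kB proteins are paired transcription factors that wait in the cytoplasm until a signal from a receptor frees them. NFKB1 and NFKB2 encode long precursors that are trimmed to DNA binding subunits, and RELB encodes a partner subunit that works mainly in the slower, noncanonical branch of the pathway. NFKBIA encodes the inhibitor that holds the pairs in the cytoplasm, and TNFAIP3 encodes an enzyme that edits ubiquitin chains and so shuts the receptor signal off, and both genes are themselves switched on by NF-kB. IL8 and CXCL1 are chemokines for neutrophils that also act on vessels and on melanoma cells, CCL2 attracts monocytes, and IL6 and LIF signal through the shared receptor chain IL6ST. The IL8 promoter is a textbook case in which NF-kB and AP-1, a factor downstream of MAP kinase signals, bind within a short stretch.

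Promoters of the members are shown because several carry the NF-kB motif close to the start of the gene. RefSeq promoters (GRCh38.p14) were found for 7 of the 10 members, and CCL2, RELB and LIF had no entry. The bases printed also occur once in GRCh37, which gave the coordinates, and they stop before the annotated start of the gene, except for IL6, whose RefSeq start lies inside the GENCODE gene. Capitals mark matches, on either strand, to the kB consensus, to GGAATTTCC or to the AP-1 motif TGANTCA. Within 250 bases before the start, the kB consensus occurred in 5.21% of 35116 promoters, GGAATTTCC in 0.413% and TGANTCA in 6.57%. CXCL1, NFKB1, TNFAIP3, IL6 and NFKBIA had a match to the kB consensus in that window. NFKB2 had matches before its start sites 2 and 3 but not before its start site 1. The 7 members had 10 start sites together, whereas the percentages count single promoters. The IL8 window held GGAATTTCC, which is 1 base shorter, and it was the only one of the 7 with TGANTCA. In CXCL1, NFKB1 and NFKBIA the match to GGAATTTCC lay inside the match to the kB consensus. A match describes the letters only, and binding was not measured.
IL8, chr4:74606136-74606235, + strand, 150 to 51 bases before the start: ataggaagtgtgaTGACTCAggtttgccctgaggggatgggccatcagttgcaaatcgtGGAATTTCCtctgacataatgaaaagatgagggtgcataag
CXCL1, chr4:74734960-74735109, + strand, 150 to 1 bases before the start: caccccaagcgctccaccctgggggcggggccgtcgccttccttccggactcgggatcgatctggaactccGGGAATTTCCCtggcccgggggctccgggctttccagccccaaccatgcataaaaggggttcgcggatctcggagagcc
NFKB1, chr4:103422366-103422486, + strand, 150 to 30 bases before the start: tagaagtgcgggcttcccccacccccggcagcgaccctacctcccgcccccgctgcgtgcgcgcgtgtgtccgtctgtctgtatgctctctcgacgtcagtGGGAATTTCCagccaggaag
TNFAIP3, chr6:138188246-138188350, + strand, 150 to 46 bases before the start: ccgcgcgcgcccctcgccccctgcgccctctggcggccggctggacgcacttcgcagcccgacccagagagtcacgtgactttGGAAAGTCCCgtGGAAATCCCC
NFKBIA, chr14:35873956-35874105, - strand, 150 to 1 bases before the start: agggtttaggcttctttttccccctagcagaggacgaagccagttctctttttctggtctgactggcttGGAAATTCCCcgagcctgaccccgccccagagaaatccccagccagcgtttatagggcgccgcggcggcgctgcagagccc
IL6, chr7:22766736-22766765, + strand, 83 to 54 bases before the start: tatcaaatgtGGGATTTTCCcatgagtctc

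Over all symbols the FPKM summed to between 970443 and 1406986 per tumor, and read depth is unknown. Short RNAs took 57.6% to 64.1% of this sum in J+V tumors, 56.9% to 60.1% in J tumors, 51.3% to 62.3% in V tumors and 47.1% to 57.6% in control tumors. Of the 8 melanoma markers examined, SOX10 (8.95 to 20.9 FPKM), MITF (6.88 to 12.8), MLANA, S100B and S100A1 were present in all 16 tumors, while PMEL and TYR were at most 0.305 FPKM and DCT was at 0 in every tumor. Markers of host cells read with the human genome were low for lymphoid cells (summed FPKM at most 0.659) and neutrophils (at most 0.430). Of 10 myeloid markers, TYROBP was at 0 in all tumors, and CD68, which is not restricted to myeloid cells, made up most of the summed 20.2 to 30.7 FPKM. PTPRC (at most 0.456 FPKM), CSF1R (at most 0.636), AIF1 (1.05 to 2.86) and LYZ (0.254 to 3.82) were above 0 in all 16 tumors. FCER1G was above 0 in 14 tumors, ITGAM in 8, CD14 in 6 and CD163 in 3, each at most 1.07 FPKM. Endothelial markers summed to at most 2.34 FPKM. The 8 melanoma markers summed to 115 to 204 FPKM in J+V, 76.1 to 116 in J, 101 to 119 in V and 78.2 to 130 in control tumors, and their part in the results was not tested. The values of a whole tumor cannot tell fewer cells that express a gene from less RNA per cell.

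In the limma fit of 4 tumors from 2 mice per group, J+V tumors had less LIF, RELB and TNFAIP3 mRNA than control tumors. Against J tumors they had less LIF, RELB, TNFAIP3 and IL8 mRNA. Only LIF kept an adjusted p below 0.05 in both comparisons under every alternative run. With tumors averaged per mouse, limma gave 0.0516 for RELB and 0.117 for TNFAIP3 against control. Against J that fit gave 0.0693 for TNFAIP3 and 0.12 for IL8. The IL8 values of J+V and J tumors overlapped. LIF averaged 1.75 ± 0.535 FPKM in J+V tumors, 2.48 ± 0.577 in V tumors, 5.64 ± 1.37 in J tumors and 5.31 ± 1.28 in control tumors (SD, n = 4 each), and the 8 tumors with Vemurafenib (1.17 to 3.19 FPKM) lay below the 8 without it (4.11 to 7.39). Set against control one by one, J+V was the only group with called genes: 37.1% of the 13426 genes passed an adjusted p below 0.05 in J+V against control, 20.5% lower and 16.6% higher. Of the 9 members 3 were lower (LIF, RELB and TNFAIP3) and 0 higher. The share of members called, 3 of 9, is close to the 37.1% of all genes called in either direction. For genes called lower the share over all genes was 20.5%, and with 9 members the 2 shares were not tested against each other. The median log2 fold change was -0.21 over the members and -0.03 over all genes. Of the called genes 55.4% were lower. After scaling to a common FPKM sum the median of all genes moved to -0.22, 85.3% of called genes were lower, and 6 members were called lower, so fold changes here are relative to the deposited scale. In J against control and in V against control 0 genes of 13426 were called (background 0% in both). At an unadjusted p below 0.05, limma gave 1140 genes (8.49%) and 1 member, CCL2, for J, and 2160 genes (16.1%) and 4 members, RELB, IL8, CXCL1 and LIF, for V. The comparisons share the same control tumors. Whether groups overlapped was looked at for single named genes only and was not counted over all genes. A lack of overlap is therefore a description and does not set the members apart. The study's thresholds (FDR below 0.1 with a p under 0.01 and more than a 2-fold change) were also applied to this limma fit of FPKM. Then 3.83% of genes (2.38% lower) and 1 member, LIF, passed in J+V against control, and 0 genes passed in J or V against control. The study itself used DESeq on read counts and reported genes that a single drug changed together with the combination, so these counts are not its own.

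**Figure D1:**
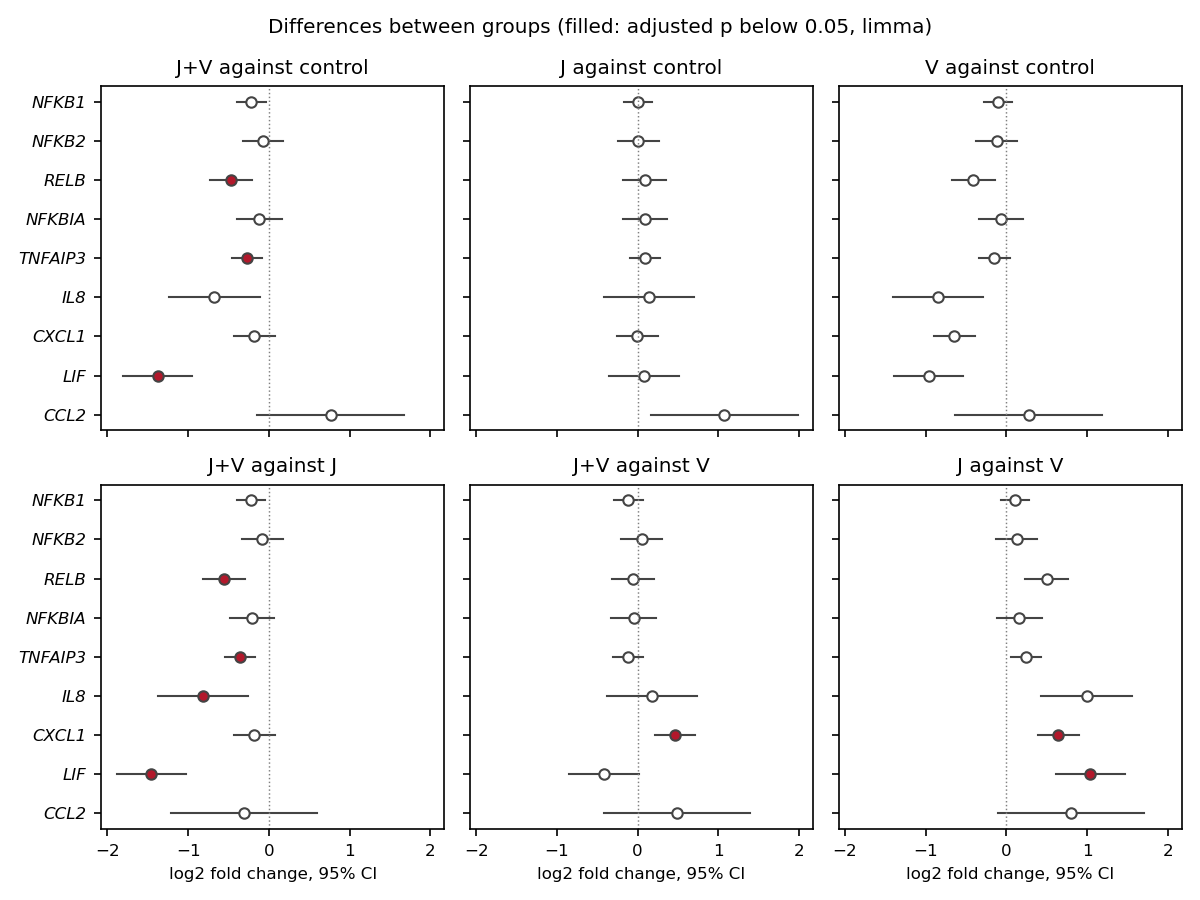
Log2 fold change of log2(FPKM + 0.5) for the 9 tested members in 6 comparisons, with 95% confidence intervals from limma (16 tumors, 4 per group) and filled points where the adjusted p was below 0.05. LIF lay furthest below 0 in J+V against control (-1.38) and in J+V against J (-1.46), and CXCL1 was the only member called in J+V against V (0.46).

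Among the 3 transcription factor genes RELB was the one called in J+V against control. RELB (GRCh37, chr19:45504719-45541450, + strand) had 1.32, 1.83, 1.66 and 1.45 FPKM in the J+V tumors 33L, 33R, 34L and 34R, and 2.36, 2.44, 2.67 and 2.61 FPKM in the J tumors 26L, 26R, 29L and 29R. It had 1.51, 1.28, 1.83 and 2.00 FPKM in the V tumors 16L, 16R, 19L and 19R, and 2.29, 2.25, 1.97 and 2.94 FPKM in the control tumors 2L, 2R, 5L and 5R. All J+V tumors were below all J and all control tumors, while the V tumors overlapped control through 19R. RELB differed by -0.47 ± 0.12 in J+V against control (log2 fold change ± SE, adjusted p = 0.00876) and by -0.55 ± 0.12 in J+V against J (adjusted p = 0.00509). In V against control its log2 fold change was -0.41 ± 0.12 (adjusted p = 0.168), and J+V against V differed by -0.06 with an interval of -0.32 to 0.21. With tumors averaged per mouse the call in J+V against control was lost (adjusted p = 0.0516), and without mouse 29 the call in J+V against J was lost (adjusted p = 0.0776). At 1.28 to 2.94 FPKM RELB was expressed several times lower per length than NFKB1 and NFKB2.

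NFKB1 and NFKB2 were not called in any planned comparison. NFKB1 (chr4:103422487-103538459, + strand) had 13.3, 14.3, 13.5 and 14.2 FPKM in J+V tumors and 17.2, 15.1, 15.9 and 16.7 FPKM in J tumors. It had 16.3, 13.8, 15.1 and 14.7 FPKM in V tumors and 15.5, 14.7, 15.2 and 19.5 FPKM in control tumors. The J+V tumors were below all J and all control tumors, but the size was small, with a log2 fold change of -0.22 ± 0.08 against control (adjusted p = 0.0522) and -0.22 ± 0.08 against J (adjusted p = 0.0567). Against control NFKB1 passed the threshold after scaling to a common FPKM sum (-0.43, adjusted p = 0.00374), with a filter at a mean FPKM of 5 (0.0409) and without 2L (0.0384), 2R (0.0238) or mouse 2 (0.0178). Against J it passed under 9 of 37 alternatives, among them leaving out control tumor 5R (0.0127) or mouse 5 (0.0167), and over all 37 the adjusted p lay between 0.0127 and 0.228. NFKB2 (chr10:104153867-104162281, + strand) averaged 8.43 ± 0.515 FPKM in J+V, 8.95 ± 0.654 in J, 8.17 ± 1.02 in V and 9.03 ± 2.03 in control tumors (SD, n = 4 each), and its groups overlapped in every comparison. The control tumor 5R was the highest for NFKB1, NFKB2 (11.9 FPKM), RELB and NFKBIA.

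**Figure D2:**
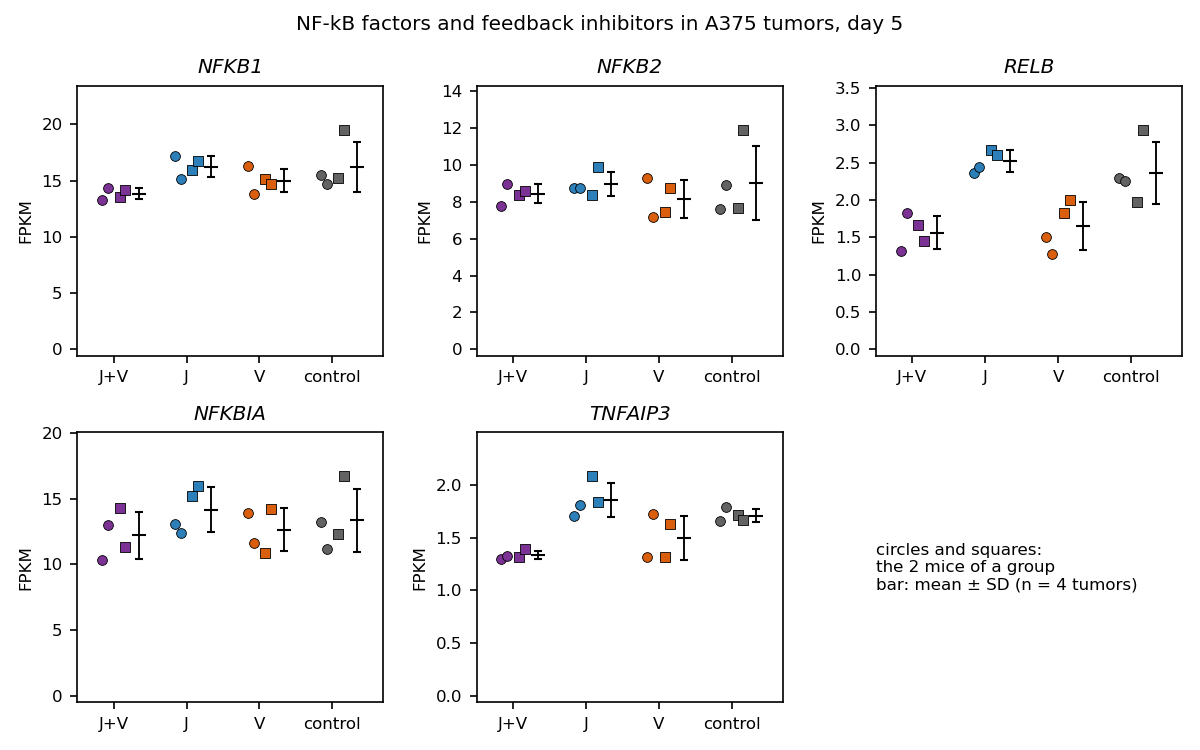
FPKM of NFKB1, NFKB2, RELB, NFKBIA and TNFAIP3 in each tumor on day 5, the marker shape telling apart the mice of each group and bars giving mean ± SD over 4 tumors. The J+V tumors lay below every J and control tumor for RELB (1.32 to 1.83 FPKM), TNFAIP3 (1.30 to 1.39) and NFKB1 (13.3 to 14.3). How many of all genes were separated in this way was not counted.

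Of the feedback inhibitors, TNFAIP3 fell and NFKBIA did not pass the test. TNFAIP3 (chr6:138188351-138204451, + strand) had 1.30, 1.33, 1.32 and 1.39 FPKM in J+V tumors and 1.70, 1.81, 2.08 and 1.84 FPKM in J tumors. It had 1.32, 1.72, 1.32 and 1.63 FPKM in V tumors and 1.66, 1.79, 1.71 and 1.67 FPKM in control tumors. The J+V tumors lay close together and under all J and control tumors, and the V tumors were split, with 16L and 19L at the J+V level and 16R and 19R near control. The log2 fold change was -0.27 ± 0.09 in J+V against control (adjusted p = 0.0279) and -0.36 ± 0.09 in J+V against J (adjusted p = 0.00889). Against control the call did not hold when just both groups were fitted (adjusted p = 0.0677), with tumors averaged per mouse (0.117), after scaling to a common FPKM sum without small RNAs (0.0716), and without 2R (0.0543), 33L (0.0580), 5L (0.107), mouse 2 (0.0800), mouse 5 (0.0712), mouse 33 (0.122) or mouse 34 (0.0672), while the log2 fold change stayed between -0.28 and -0.25 without any 1 tumor or mouse. The call against J was lost with tumors averaged per mouse (0.0693) and without mouse 29 (0.122) or mouse 33 (0.0646). NFKBIA (chr14:35870285-35873955, - strand), whose promoter carries a kB match as that of TNFAIP3 does, averaged 12.2 ± 1.75 FPKM in J+V, 14.2 ± 1.66 in J, 12.6 ± 1.65 in V and 13.3 ± 2.39 in control tumors (SD, n = 4 each). Its groups overlapped in all comparisons, and in J+V against control the log2 fold change was -0.12 with an interval of -0.39 to 0.16 (adjusted p = 0.499).

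LIF, a cytokine of the IL6 family, had the largest fold change of the 9 tested members in J+V against control. LIF (chr22:30636442-30642748, - strand) had 1.17, 1.44, 2.03 and 2.34 FPKM in J+V tumors and 4.11, 5.85, 5.20 and 7.39 FPKM in J tumors. It had 1.78, 2.48, 2.44 and 3.19 FPKM in V tumors and 4.94, 4.66, 4.44 and 7.21 FPKM in control tumors. Neither the J+V nor the V tumors overlapped with J or control tumors. In J+V against control LIF had a log2 fold change of -1.38 ± 0.20 (adjusted p = 0.000203), a fold of 0.384, and in J+V against J one of -1.46 ± 0.20 (adjusted p = 0.000317), and both calls held under each of the 36 alternatives run (adjusted p at most 0.00979 and 0.0184). In V against control the log2 fold change was -0.96 ± 0.20, with no overlap but an adjusted p of 0.141, in a comparison in which no gene was called. Without V tumor 19R or control tumor 5R that adjusted p was 0.0405 and 0.0484. J+V against V gave -0.42 with an interval of -0.85 to 0.01 (adjusted p = 0.180), and it gave -0.70 without mouse 34 (adjusted p = 0.0479) and -0.13 without mouse 33 (0.774). In J against control the log2 fold change was 0.08 with an interval of -0.35 to 0.51.

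IL8 had its lowest mean in V tumors, and its J+V tumors differed by mouse. IL8 (named CXCL8 in GENCODE, chr4:74606236-74609433, + strand) had 6.01, 6.60, 10.8 and 17.3 FPKM in J+V tumors and 20.1, 18.7, 14.3 and 14.9 FPKM in J tumors. It had 7.57, 9.59, 9.60 and 6.50 FPKM in V tumors and 19.3, 12, 18.3 and 12.6 FPKM in control tumors. The V tumors were all below J and control, whereas in J+V the tumors of mouse 33 (mean 6.30 FPKM) were as low as V and those of mouse 34 (mean 14.1 FPKM) were higher, with 34R inside the control range and 34L just under it. In J+V against J the log2 fold change was -0.82 ± 0.26 (adjusted p = 0.0319), and in J+V against control it was -0.68 ± 0.26 (adjusted p = 0.0557). In J+V against J 27% of all genes were called, 18.4% lower and 8.67% higher, and 4 members were lower (LIF, RELB, TNFAIP3 and IL8). Without mouse 33 these were -0.29 (adjusted p = 0.408) and -0.14 (0.670), and without mouse 34 they were -1.35 (0.000484) and -1.21 (0.000706). The call against J was also lost without 26L (0.0807), 26R (0.0867), 33L (0.106), 33R (0.104), 5L (0.0725), mouse 26 (0.239) or mouse 29 (0.0756), with no filter (0.0541), after quantile normalization (0.0507), when just both groups were fitted (0.0678) and with tumors averaged per mouse (0.12). The value against control passed the threshold without 2R (0.0494), 34L (0.0429) or 34R (0.00365). In V against control the log2 fold change was -0.85 ± 0.26 (adjusted p = 0.170).

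CXCL1 was lowest in V tumors, below both J+V and J. CXCL1 (chr4:74735110-74737025, + strand), which lies near IL8 on chromosome 4, had 6.91, 6.42, 9.32 and 8.76 FPKM in J+V tumors and 9.20, 9.25, 7.97 and 9.10 FPKM in J tumors. It had 4.75, 5.83, 5.19 and 6.31 FPKM in V tumors and 8.82, 9.80, 9.43 and 7.61 FPKM in control tumors. The V tumors lay below all tumors of the other 3 groups. CXCL1 was higher in J+V than in V by 0.46 ± 0.12 (adjusted p = 0.0196) and higher in J than in V by 0.64 ± 0.12 (adjusted p = 0.0406). In V against control the log2 fold change was -0.65 ± 0.12 (adjusted p = 0.129), and it passed the threshold without V tumor 19R (0.0358), control tumor 5R (0.0175) or mouse 5 (0.0322). J+V against control gave -0.18 ± 0.12 (adjusted p = 0.24), with mouse 33 (mean 6.67 FPKM) below and mouse 34 (mean 9.04 FPKM) within the control range, and the value was -0.39 without mouse 34 (0.0200) and 0.02 without mouse 33 (0.897). The interaction of both drugs (J+V less the summed J and V effects) was 0.47 ± 0.17 with an unadjusted limma p of 0.0139 and an adjusted p of 0.263. For this interaction 0 genes of 13426 were called (background 0%), 1693 (12.6%) had an unadjusted p below 0.05, and CXCL1 was the 1 member among them. CXCL1 is close in sequence to CXCL2 and CXCL3, and the assignment of reads that map to several of them is not stated. CXCL2 averaged 2.81 ± 0.470 FPKM in J+V, 1.91 ± 0.597 in J, 2.17 ± 0.630 in V and 2.12 ± 0.725 in control tumors (SD, n = 4 each).

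The call for CXCL1 in J+V against V and those for CXCL1 and LIF in J against V lay close to the threshold. In J+V against V 13.3% of all genes were called (8.31% lower, 4.99% higher), and the CXCL1 call was lost without 16L (adjusted p = 0.0573), 34R (0.0563), 5L (0.0644), mouse 16 (0.0870), mouse 19 (0.0713) or mouse 34 (0.157), after scaling to a common FPKM sum (0.169), when just both groups were fitted (0.0710) and with tumors averaged per mouse (0.114). Without mouse 34 its log2 fold change in J+V against V was 0.26. In J against V 0.283% of all genes were called (38 genes, 0.127% higher), with CXCL1 and LIF (1.04 ± 0.20, adjusted p = 0.0483) higher in J. Each of these 2 calls was lost under 19 of the alternatives, among them leaving out any 1 of the tumors 16L, 16R, 19L, 26L, 26R, 29L, 29R and 5L or of the mice 16, 19, 26 and 29 (adjusted p up to 0.471 for CXCL1 and 0.433 for LIF), while the log2 fold change stayed between 0.56 and 0.70 for CXCL1 and between 0.87 and 1.21 for LIF.

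**Figure D3:**
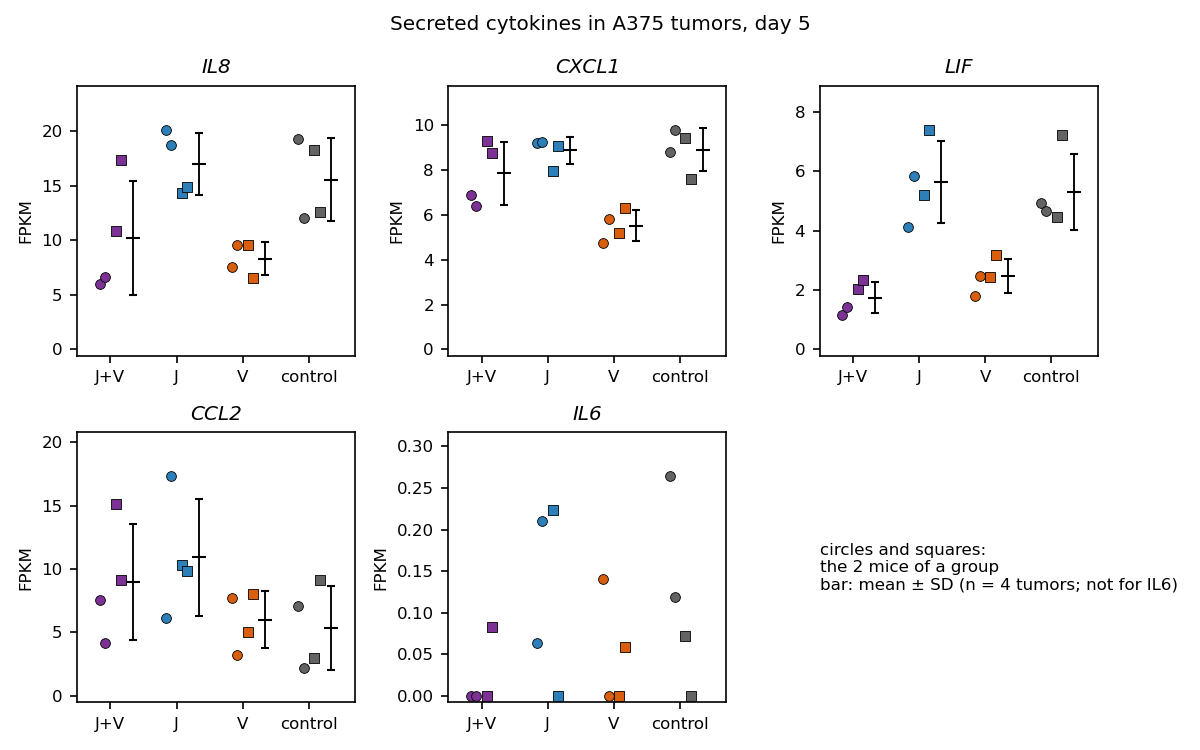
FPKM of IL8, CXCL1, LIF, CCL2 and IL6 in each tumor on day 5, the marker shape telling apart the mice of each group and bars giving mean ± SD over 4 tumors, except for IL6. The J+V and V tumors lay below all J and control tumors for LIF, and the J+V tumors of mouse 34 (squares) lay above those of mouse 33 (circles) for IL8, CXCL1 and LIF.

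CCL2, the attractant of monocytes, varied most between tumors of a group, and it did not pass the test in any comparison. CCL2 (chr17:32582293-32584227, + strand) had 7.59, 4.13, 15.1 and 9.17 FPKM in J+V tumors and 6.17, 17.3, 10.3 and 9.86 FPKM in J tumors. It had 7.74, 3.25, 5.04 and 8.03 FPKM in V tumors and 7.08, 2.17, 2.96 and 9.16 FPKM in control tumors. All groups overlapped. In J against control the log2 fold change was 1.07 ± 0.43, with an interval of 0.17 to 1.98 and an adjusted p of 0.496. The summed FPKM of 7 fibroblast markers (COL1A1, COL1A2, COL3A1, DCN, LUM, PDGFRA and PDGFRB) was 64.6 to 120 in J+V, 60.8 to 78.6 in J, 58.3 to 116 in V and 38.1 to 44.4 in control tumors other than 5R, which had 128. Over the 16 tumors, log2 values of CCL2 and of this sum had a Pearson r of 0.558 and a Spearman rho of 0.518, and an r of 0.583 after group means were removed, given as a description of tumors that share groups, mice and libraries. In J+V against control 3 of the 7 markers were higher, DCN (1.67, adjusted p = 0.0118), LUM (1.61, 0.000833) and PDGFRB (0.72, 0.0192), and 4 were not called, COL3A1 (0.50, 0.196), COL1A2 (0.16, 0.756), PDGFRA (-0.09, 0.828) and COL1A1 (-0.16, 0.769). The part of fibroblast markers in the CCL2 values was not tested. Host fibroblasts would be mouse cells, while reads were aligned to the human genome. Whether the marker values came from tumor cells or from mouse reads was not tested, so the sum is not a measure of fibroblast content.

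**Figure D4:**
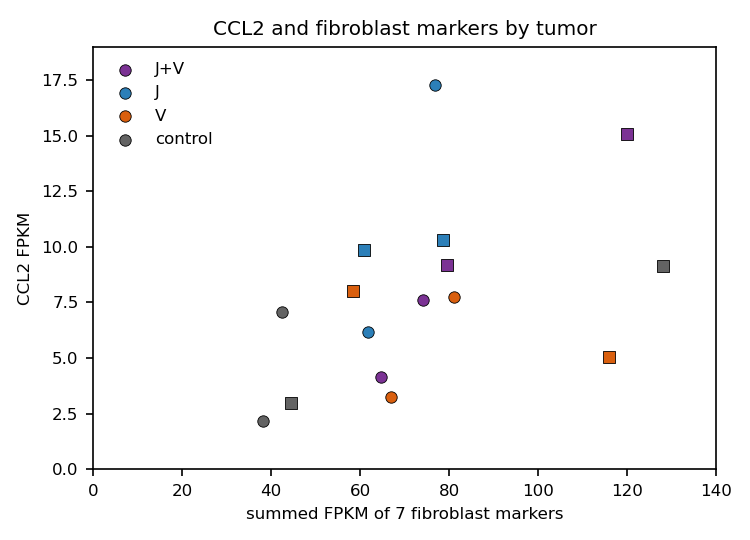
CCL2 FPKM against the summed FPKM of 7 fibroblast markers in each of the 16 tumors, colored by group, the marker shape telling apart the mice of each group. The other control tumors lie at marker sums of 38.1 to 44.4 while the control tumor 5R lies at 128, and tumors with sums from 76.8 to 81.2 had CCL2 between 7.74 and 17.3 FPKM.

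IL6 (chr7:22765503-22771621, + strand) was at or near 0 in all groups. It was listed at 0, 0, 0 and 0.083 FPKM in J+V tumors and at 0.0636, 0.210, 0.223 and 0 FPKM in J tumors. It was listed at 0.140, 0, 0 and 0.0588 FPKM in V tumors and at 0.264, 0.119, 0.0723 and 0 FPKM in control tumors. The highest of the 16 values was 0.264 FPKM and 9 tumors were above 0, so IL6 gives no comparison at this level.

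LIF, IL8 and RELB had lower means in J+V and V than in J and control tumors, as did every other tested member except CCL2. The mean of J+V and V was therefore also set against the mean of J and control in the same fit. That comparison was chosen because of these values, so it restates them and does not test them anew. In tumors with Vemurafenib against tumors without it, 29.6% of all genes were called, 18.1% lower, and 6 of the 9 members were lower. Their log2 fold changes, given as a description, were -1.21 ± 0.14 for LIF, -0.83 ± 0.19 for IL8, -0.48 ± 0.09 for RELB, -0.41 ± 0.08 for CXCL1, -0.25 ± 0.06 for TNFAIP3 and -0.16 ± 0.06 for NFKB1 (± SE). Neither IL8 nor CXCL1 was called in J+V against control or in V against control. The median log2 fold change was -0.26 over the members and -0.02 over all genes. TNFAIP3 lost its call without mouse 29 (adjusted p = 0.0585) and with tumors averaged per mouse (0.0657), and NFKB1 lost its call under 28 of 36 alternatives, with adjusted p up to 0.140. In the same way, and also after the values were seen, tumors with JQ1 were set against tumors without it. Here 10.7% of all genes were called (5.32% lower, 5.36% higher) and 0 members. At an unadjusted limma p below 0.05 were 3675 genes (27.4%) and 2 of the 9 members, which is close to that share. These 2 were CCL2 (0.78 ± 0.30, adjusted p = 0.107) and CXCL1 (0.23 ± 0.08, adjusted p = 0.0898). Both passed the threshold without J+V tumor 33R (0.0488 and 0.0403), and CXCL1 also without mouse 33 (0.0247).

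The other genes of the pathway moved in both directions. Of 178 genes in 9 lists of ligands, receptors, adapters, factors, regulators, targets and cytokine signaling, 130 passed the filter, and in J+V against control 22 were lower and 17 higher. These 30% are below the 37.1% called over all genes, and the median log2 fold change was -0.06. Of the ligands that start the signal, TNF, IL1A and IL1B were below the filter, with highest values of 0.0908, 0.581 and 0.324 FPKM, and TNFSF12 (0.51, adjusted p = 0.0325) was the 1 of 2 tested ligands called. Of 16 receptors 2 were lower and 5 higher, among them TNFRSF12A, the receptor of TNFSF12, with 35.2 ± 8.45 FPKM in J+V and 60.7 ± 11.8 in control tumors (SD, n = 4 each, log2 fold change -0.78, adjusted p = 0.00260). TNFRSF19, a receptor of the TNF family, rose by 0.94 (adjusted p = 0.00151) and TLR1 by 0.55 (adjusted p = 0.0346).

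Of 28 adapters and kinases 4 were lower and 1 higher in the same comparison, with differences on the log2 scale. IRAK1, a kinase of the interleukin and Toll-like receptors, fell by 0.81 (adjusted p = 0.00145), MALT1, a protease that relays antigen receptor signals, fell by 0.67 (adjusted p = 0.0112) and TRAF3, which restrains the noncanonical branch, fell by 0.29 (adjusted p = 0.0393). The kinase CHUK fell by 0.18 (adjusted p = 0.0428), and its partner IKBKB had a log2 fold change of 0.10 (adjusted p = 0.492). Of the other family members RELA, the main activating subunit, had 12.3 ± 1.13 FPKM in J+V and 13.0 ± 3.53 in control tumors (SD, n = 4 each, adjusted p = 0.771), REL was higher by 0.39 (adjusted p = 0.0237) and the inhibitor NFKBIB fell by 0.38 (adjusted p = 0.00150). Of 17 negative regulators TNIP2 fell by 0.70 (adjusted p = 0.000458), FAM105B, a deubiquitinase of linear chains, fell by 0.20 (adjusted p = 0.0285) and TAX1BP1 was higher by 0.41 (adjusted p = 0.00249).

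Of 25 other target genes 7 were lower and 4 higher, and their median was -0.20 on the log2 scale. PLAUR, the receptor of urokinase, had 4.64, 3.78, 7.80 and 8.65 FPKM in J+V tumors, 16.8, 22.4, 19.7 and 20.7 FPKM in J tumors, 14.8, 14, 14.8 and 18.3 FPKM in V tumors and 18.4, 23.2, 23.4 and 23.8 FPKM in control tumors. Its difference between J+V and control was -1.82 ± 0.20 (adjusted p = 3.2e-05), and its J+V tumors lay below the tumors of all other groups. TRAF1 was higher in J+V than in control by 1.67 ± 0.21 (adjusted p = 6.77e-05), with 4.47 ± 1.15 FPKM in J+V and 1.07 ± 0.399 in control tumors (SD, n = 4 each), and VCAM1, an adhesion molecule, by 1.59 ± 0.39 (adjusted p = 0.00560). Listed targets of NF-kB were thus called in both directions.

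Of 10 other chemokines tested 0 were called, CXCL2 (0.37, adjusted p = 0.200) and CXCL3 (-0.25, adjusted p = 0.419) included. Of 11 other cytokines and growth factors 4 were lower and 1 higher. IL11, like LIF a cytokine that signals through IL6ST, had 1.54, 1.41, 2.20 and 2.76 FPKM in J+V tumors, 9.43, 12.1, 9 and 10.4 FPKM in J tumors, 5.38, 5.65, 6.02 and 9.26 FPKM in V tumors and 6.83, 8.26, 11.6 and 8.19 FPKM in control tumors. Its difference between J+V and control was -1.90 ± 0.20 (adjusted p = 2.62e-05) and that between J+V and V -1.52 ± 0.20 (adjusted p = 0.000870). KITLG fell by 0.79 (adjusted p = 0.00742), and SPP1 (osteopontin) was higher by 2.06 (adjusted p = 0.000281). Of the receptors for these cytokines, IL6ST was higher by 0.44 (adjusted p = 0.0111), with 60.0 ± 3.16 FPKM in J+V and 44.7 ± 8.74 in control tumors (SD, n = 4 each), LIFR was higher by 0.58 (adjusted p = 0.00262), and SDC1, a proteoglycan that binds chemokines, fell by 1.25 (adjusted p = 0.000207). LIF was thus lower, and both chains of its receptor higher, in J+V than in control tumors.

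**Figure D5:**
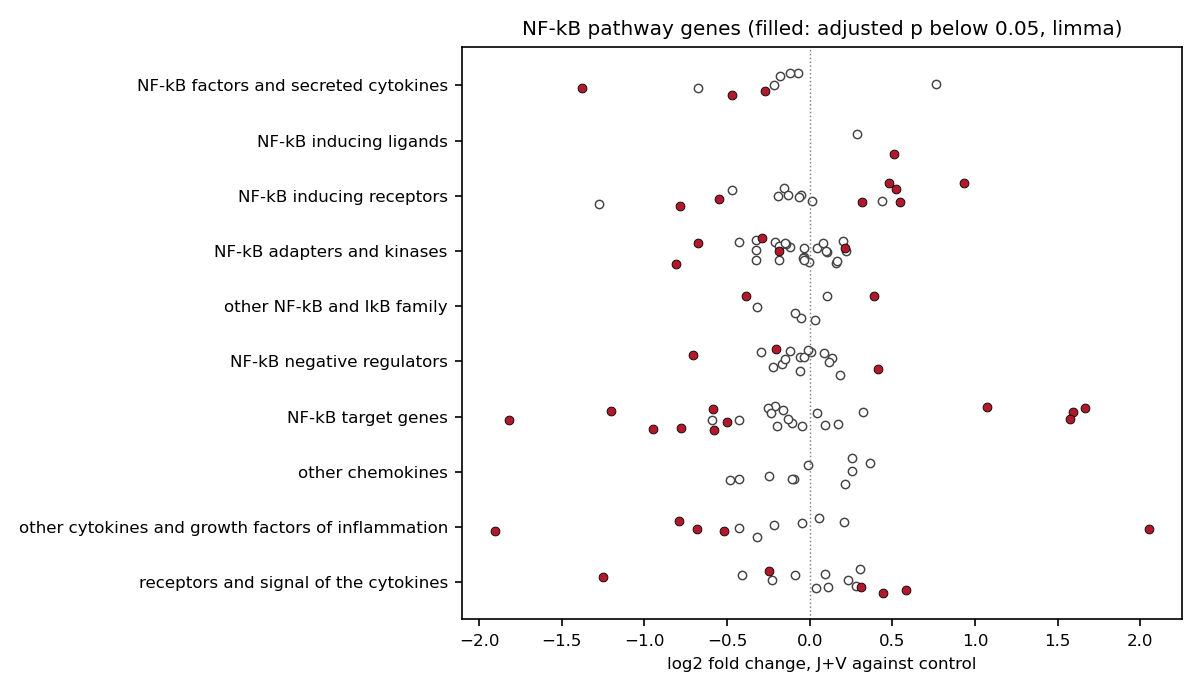
Log2 fold change in J+V against control of the 9 tested members and of 130 other genes in 9 lists, with filled points where the adjusted p from limma was below 0.05 and vertical position within a row only to separate points. Called genes lie on both sides of 0, from IL11 at -1.90 to SPP1 at 2.06.

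The members did not follow a single pattern over the 16 tumors. On log2 values, RELB and LIF had a Pearson r of 0.879, TNFAIP3 and LIF 0.839, and IL8 and CXCL1 0.735, whereas NFKB2 had an r of 0.0327 with IL8 and 0.131 with CXCL1. After group means were removed the r was 0.518 for RELB and LIF, 0.313 for TNFAIP3 and LIF and 0.517 for IL8 and CXCL1. Among all 13426 genes, the gene most like each member over the 16 tumors was FAM196B for LIF (r = 0.949), PUS1 for RELB (0.934), INTS4 for NFKB2 (0.929), HIST1H4A for TNFAIP3 (0.915), MRPL52 for NFKB1 (0.890), AZI1 for NFKBIA (0.877), MTAP for IL8 (0.837), INE2 for CCL2 (0.827) and LY6K for CXCL1 (0.820). No member was the nearest gene of another, but with 13426 genes to choose from this says little about the members. These r describe tumors that share groups, mice and libraries. The spread within groups (SD of log2 values) was 0.09 for TNFAIP3, 0.11 for NFKB1, 0.42 for IL8 and 0.70 for CCL2. The mean square between the mice of a group was 3.35 times that between the tumors of a mouse for IL8, 2.84 times for CXCL1, 2.00 times for LIF and 1.37 times for RELB, and it was below it for NFKB1, NFKB2, NFKBIA, TNFAIP3 and CCL2.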

How the data were processed

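The authors deposited FPKM values per gene symbol for each tumor. Per the labels and the paper's methods, libraries were made from RNA depleted of ribosomal RNA (RiboZero, ScriptSeq v2), reads were aligned to hg19 with TopHat, and FPKM were computed with Cufflinks. Not given in the sources used here: versions, gene annotation, any removal of mouse reads. Read counts were not used here, so counting error is not known.

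All 16 tumors were mapped to 4 groups by GEO's labels, and 0 columns were left unmapped. From the deposited FPKM, log2(FPKM + 0.5) was computed for genes that reached 1 FPKM in 4 or more tumors. Fold changes are on this scale, which understates the change of low genes such as RELB, TNFAIP3 and LIF. limma 3.58.1 (R 4.3.3) was fitted with group means, a trend in the variance and the mouse as a block (estimated correlation -0.0674, 12 residual degrees of freedom), p-values were adjusted by Benjamini-Hochberg over all 13426 genes, and genes were called at an adjusted p below 0.05. All tests are two-sided. The p-values measure the spread between tumors of 2 mice per group. The correlation of -0.0674 is 1 value for all genes and lies below 0. The block therefore made the errors of the group comparisons slightly smaller than a fit without it. With no mouse block the calls in J against V were lost for CXCL1 (adjusted p = 0.0568) and LIF (0.0691). For genes whose mice differed more than the tumors of a mouse, such as IL8, CXCL1, LIF and RELB, errors and p-values can be too small. The fit was tested on simulated data, and no result of that run is given or used here. Promoters and motifs were read with Python 3.11.15, and gene positions came from GENCODE 44 lifted to GRCh37.

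The members and lists were chosen with earlier results of these data known. Named were all members, the 3 genes of each list with the largest fold change among those called in J+V against control, TNF, IL1A, IL1B, RELA, REL, CHUK, IKBKB, CXCL2, CXCL3, IL6ST and LIFR, and the nearest gene of each member by Pearson r. Markers named are those of the cell type lists. The alternatives were other pseudocounts, filters, scalings, blocks and samples in the fit, robust moderation, flank as a term, the study's thresholds, and leaving out each tumor or mouse. The 2 comparisons by drug were added after the data were seen.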

Additional observations from a re-analysis of the deposited data

Results flagged for a closer look

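Of 36 groups of 4 tumors examined (9 members in 4 groups), 1 held a tumor further from the others than the critical value of Dixon's test. CXCL1 in J tumor 29L was 7.97 FPKM, below the other J tumors at 9.10 to 9.25 FPKM. Chance alone flags about 1 in 20 groups. Without 29L the log2 fold change of CXCL1 in J against V was 0.69 (adjusted p = 0.0725), against 0.64 (0.0406) with it.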

How the results depend on the processing

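Of 81 differences of single members (9 members in 9 comparisons), 16 were called as reported and 29 in that fit or under at least 1 alternative. LIF in J+V against control and against J was called under every alternative run. So were LIF, IL8, RELB and CXCL1 in tumors with Vemurafenib against tumors without it, a comparison chosen because of their values, so this is no independent support. Over the 81 differences 113 refits changed sign, with 0 of these past the threshold. Of the values in the text, all on the log2 scale and without 1 tumor or mouse, CXCL1 lay between -0.389 and 0.0242 in J+V against control and between -0.386 and 0.0266 in J+V against J, RELB between -0.233 and 0.119 in J+V against V, and LIF between -0.0794 and 0.231 in J against control. After scaling to a common FPKM sum LIF in J against control was -0.0563. The cause was not tested.

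After scaling to a common FPKM sum 6 members were called in J+V against control (3 as reported), 0 in J+V against V (1) and 0 in J against V (2), and 2889 genes were called in J+V against V (1786) and 3079 in JQ1 against no JQ1 (1434). That scaling moved the median of all genes to -0.22 in J+V against control, -0.12 in J+V against J, -0.18 in J+V against V and -0.14 in JQ1 against no JQ1. The share of called genes that were lower was then 84.5% in J+V against J (67.9% as reported), 91.9% in J+V against V (62.5%), 92.5% in JQ1 against no JQ1 (49.8%) and 81.0% in Vemurafenib against no Vemurafenib (61.1%). With upper quartile scaling the shares lower were 50.7% in J+V against J and 47.7% in Vemurafenib against no Vemurafenib, and with quantile normalization 48.6% and 48.9%. With tumors averaged per mouse, a fit with fewer samples, 1 member was called in J+V against control, 2 in J+V against J, 0 in J+V against V and 0 in J against V. That fit called 2257 genes in J+V against J (3628), 234 in J+V against V, 3 in J against V (38), 2 in J against control (0), 1 in V against control (0), 2 for the interaction of both drugs (0), 2462 in Vemurafenib against no Vemurafenib (3970) and 61 in JQ1 against no JQ1. With a mean FPKM of at least 5, where fewer members were tested, 1 member was called in J+V against control, 2 in J+V against J, 1 in J against V and 3 in Vemurafenib against no Vemurafenib (6). In J against V 1 member was called with a pseudocount of 0.1, upper quartile scaling, quantile normalization or flank as a term, and 0 with no filter, no mouse block or a common sum without small RNAs. Genes called in J against V were 4 with no filter, 24 with a mean FPKM of at least 5, 24 with a common sum without small RNAs, 15 with no mouse block, 101 with only the groups compared and 22 with flank as a term. With only the groups compared 890 genes and 0 members were called in J+V against V, and upper quartile scaling called 1 gene in J against control. The study's thresholds, applied to the limma fit, called 514 genes and 1 member in J+V against control (4979 and 3).

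Without 1 tumor or mouse, the genes called were 2843 to 5232 in J+V against control, 0 to 101 in J against control, 0 to 423 in V against control, 1136 to 4440 in J+V against J, 330 to 2431 in J+V against V, 0 to 363 for the interaction of both drugs, 0 to 117 in J against V, 2176 to 4465 in Vemurafenib against no Vemurafenib and 317 to 1873 in JQ1 against no JQ1. The members called were 2 to 4 in J+V against control, 0 to 2 in V against control, 1 to 5 in J+V against J, 0 to 1 in J+V against V, 0 to 3 in J against V, 4 to 6 in Vemurafenib against no Vemurafenib and 0 to 2 in JQ1 against no JQ1. No paired analysis was possible because each mouse belonged to 1 group. With 2 mice per group and the number of reads unknown, small differences of low genes such as IL6 were not detectable.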
